A study of Mus musculus with 12 samples.

Results

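The 8 mouse genes Myo7a, Ush1c, Ush1g, Cib2, Cdh23, Pcdh15, Gpr98 and Clrn1, whose human counterparts are known as Usher syndrome genes, were followed through allele-specific retinal transcriptomes. They were taken by gene symbol from tables of 37991 genes, in which the 8 symbols fill 9 rows. The additional row is a pseudogene listed under the symbol Pcdh15 (ENSMUSG00000046980), which held 0 unique hits in every library and was left aside. Retinas came from male mice aged 8 weeks, in 12 libraries of pooled retinas (6 to 8 per pool), with 3 libraries for each of 4 classes. F0 C57BL/6J and F0 Cast/EiJ are the inbred parents, the latter a wild-derived strain. F1 B6xCast hybrids had a Cast/EiJ mother and F1 CastxB6 hybrids had a C57BL/6J mother, and in these libraries each gene has a value for its B6 allele and a value for its Cast allele. No transgene, deletion or drug was involved. The parents were read on 1 sequencing lane and the hybrids on 2. Where p-values are given, they measure the spread between pools, since the labels do not say whether pools shared litters.

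Usher syndrome joins congenital deafness with progressive loss of photoreceptors, and its proteins are best known from the hair bundle of the inner ear, where cadherin links between stereocilia are anchored to a myosin and to scaffold proteins. In the retina of various species these proteins have been placed at the calyceal processes and the connecting cilium of photoreceptors. Their place in mouse cells was not examined here. The myosin is also abundant in the retinal pigment epithelium (RPE), the pigmented layer behind the photoreceptors. The alleles of a hybrid are read from one pool of cells, so the number or type of cells cannot set them apart, whereas it can set F0 strains apart. In the F0 libraries, fewer cells of a type and less RNA per cell cannot be told apart.

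Depth was given by the unique hits, which are read pairs assigned to a single gene and, in hybrids, to a single allele. They ranged from 8158534 to 11888819 per F0 library and from 8808577 to 12363291 per F1 library. The count equivalents, an estimate that also divides shared reads, had been normalized by the authors so that each F0 library and each allele of an F1 library has a comparable total, and F1 alleles are therefore set directly beside F0 strains. Over all autosomal genes the Cast allele took 49.5% to 49.6% of the allele-specific hits of each F1 library. In these male hybrids the X chromosome comes from the mother, and 0.468% to 0.637% of X chromosomal hits were assigned to the father's allele, which gives the background of reads on the wrong allele. Between F0 strains the summed level of the marker lists differed: F0 Cast/EiJ had 103% of the F0 C57BL/6J mean for rod markers, 70.9% for cone, 67.6% for ganglion cell, 124% for amacrine cell and 50.04% for RPE markers, and between 86.5% and 94.1% for Mueller glia, bipolar cell, horizontal cell and blood markers. Lens markers were at 159%, with overlapping ranges for each gene. A sum is led by its most abundant genes, and of the 6 rod markers 3 lay below and 2 above the C57BL/6J range.

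The order of the genes by level, given as FPKM (which scales reads by transcript length and library size), spanned from the cadherin Pcdh15 to the scaffold Ush1c. In F0 C57BL/6J Pcdh15 was at 42.4 ± 2.0 FPKM (SD, n = 3), above 92.8% of the genes tested between the strains. It was followed by Gpr98 at 15.0 ± 1.9, Myo7a at 7.91 ± 1.3, Cib2 at 4.82 ± 0.12, Clrn1 at 1.39 ± 0.036, Ush1g at 0.781 ± 0.13, Cdh23 at 0.393 ± 0.17 and Ush1c at 0.0436 ± 0.040. The ranges of neighbours in this order did not overlap. In F0 Cast/EiJ Pcdh15 at 30.9 ± 1.8 FPKM, Gpr98 at 5.30 ± 0.27 and Cib2 at 2.31 ± 0.20 came first. Clrn1 at 1.25 ± 0.36 and Cdh23 at 1.13 ± 0.32 could not be separated beyond their spread. Myo7a was at 0.230 ± 0.032, and Ush1c at 0.149 ± 0.016 overlapped Ush1g at 0.112 ± 0.070. Myo7a thus held rank 3 in the F0 C57BL/6J retina, above 56.1% of the genes tested, and rank 6 in the F0 Cast/EiJ retina, above 4.43% of them. Within the hybrids, Pcdh15 and Gpr98 led on both alleles, and the Myo7a and Cib2 ranges overlapped on the B6 allele in both crosses.

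**Figure D1:**
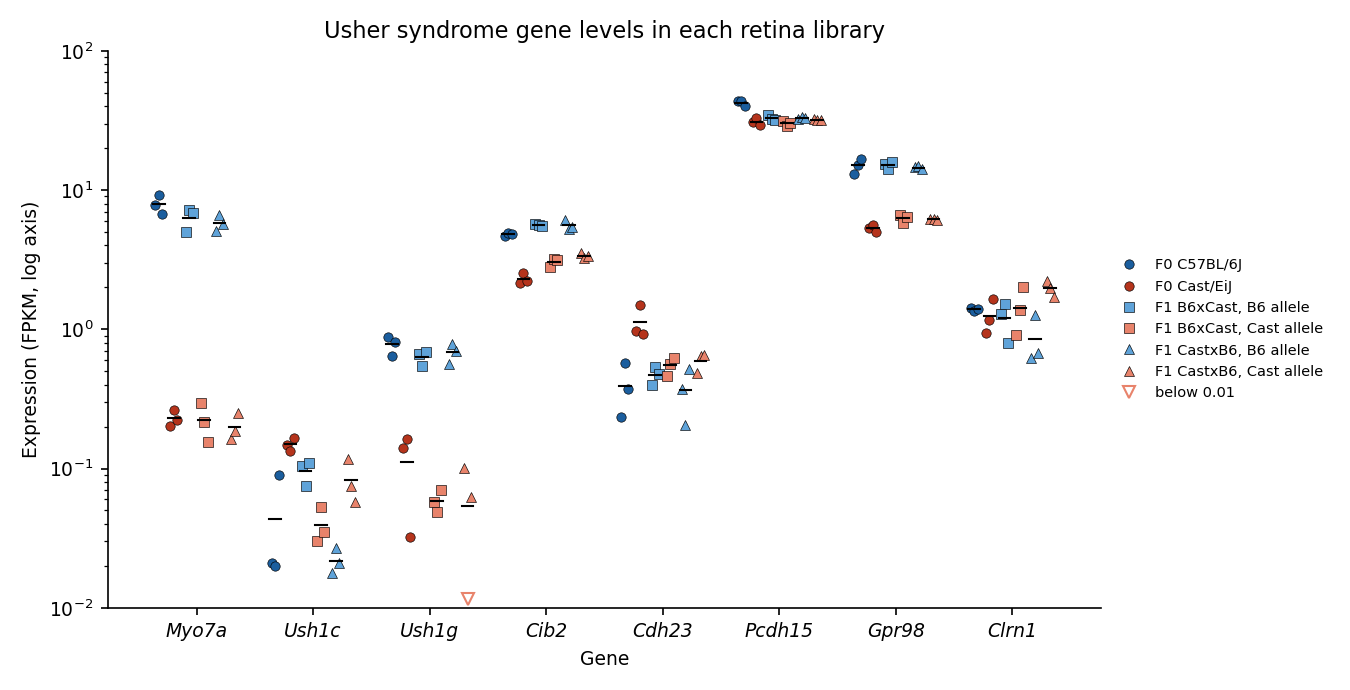
Expression in FPKM (log axis) of the 8 genes in each library, with colours for the strain or allele, symbols for the class and black bars for the mean of 3 libraries. Myo7a, Ush1g, Cib2 and Gpr98 separate by allele, with every Cast value below every B6 value. Pcdh15 stays between 28.6 and 43.7 FPKM throughout, and 1 Ush1g value lies below the axis.

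Myo7a, Ush1g, Cib2 and Gpr98 were lower from the Cast allele in every F1 library and lower in the Cast/EiJ parent, as was Pcdh15 by a smaller margin. Because the first 4 are lower together by allele, the C57BL/6J reference sequence just before each of them is shown for orientation. The windows hold the 250 bases before the annotated gene start in NCBI37, contain no annotated exon, and run 5′ to 3′ on the gene's strand. Cast/EiJ differences from this sequence were not used here. Capitals mark matches on either strand to the letters GGGCGG, known as the GC box, and to the letters CCAAT. Also searched were the core bound by the photoreceptor factor CRX, TAATCC, and the E-box, CACGTG.
Myo7a, chr7:105268035-105268284, minus strand:
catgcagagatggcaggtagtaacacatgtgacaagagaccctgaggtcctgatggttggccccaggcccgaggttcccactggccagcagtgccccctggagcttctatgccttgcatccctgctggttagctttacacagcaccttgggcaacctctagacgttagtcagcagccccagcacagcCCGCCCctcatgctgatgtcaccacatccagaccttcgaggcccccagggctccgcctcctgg
Ush1g, chr11:115183356-115183605, minus strand:
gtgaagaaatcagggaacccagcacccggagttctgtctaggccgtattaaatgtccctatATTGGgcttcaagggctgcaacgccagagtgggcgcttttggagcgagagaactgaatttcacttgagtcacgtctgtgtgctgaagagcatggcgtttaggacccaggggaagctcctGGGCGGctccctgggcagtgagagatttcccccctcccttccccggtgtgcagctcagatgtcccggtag
Cib2, chr9:54408026-54408275, minus strand:
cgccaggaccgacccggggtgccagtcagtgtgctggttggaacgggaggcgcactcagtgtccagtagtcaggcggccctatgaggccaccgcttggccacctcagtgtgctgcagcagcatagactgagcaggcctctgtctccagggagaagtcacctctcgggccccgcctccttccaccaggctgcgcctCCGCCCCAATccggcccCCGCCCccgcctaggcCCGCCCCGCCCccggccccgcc
Gpr98, chr13:81772154-81772403, minus strand:
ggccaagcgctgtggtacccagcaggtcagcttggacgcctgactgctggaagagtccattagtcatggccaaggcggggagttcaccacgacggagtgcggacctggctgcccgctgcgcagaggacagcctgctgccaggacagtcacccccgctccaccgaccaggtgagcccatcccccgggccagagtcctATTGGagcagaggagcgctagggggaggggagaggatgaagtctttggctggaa
The letters TAATCC and CACGTG were not found in any of the 8 genes' windows. They occur in 6.46% and 6.52% of the windows of this length before 22362 protein-coding genes. A GC box begins 63 bases before the Myo7a start and 70 bases before the Ush1g start. Cib2 has the GC-richest of the 4 windows (71.6% G or C) and holds 4 GC boxes, the farthest at 55 bases, and a CCAAT box at 50 bases that shares 1 base with it. Gpr98 has no GC box and a CCAAT box at 54 bases. GGGCGG occurs in 39.6% and CCAAT in 35% of all windows, so these matches are common ones.

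Between the F0 strains the question was which of the genes differ between the retinas of the parents. The motor gene Myo7a and the scaffold gene Ush1g were the lowest in Cast/EiJ relative to C57BL/6J, Cib2, Gpr98 and Pcdh15 were lower as well, and Cdh23 was higher. Differences are given on the scale of log2(count equivalents + 1), which understates the change of genes with few reads, and were tested with limma over 14452 autosomal genes. Ush1c did not reach the minimum level. Cdh23 and Ush1g reached it in 4 of the 6 libraries, of which 3 were those of the strain in which they are high, and they are therefore counted apart. Of the 5 genes above the minimum in all 6 libraries, Myo7a, Cib2, Pcdh15 and Gpr98 passed an adjusted p of 0.05 with lower levels in Cast/EiJ, and Clrn1 did not, beside 33.8% of all genes called and 16.6% called lower. The median difference of the 5 was that of Cib2, -1.06, and the median over all genes tested was 0.03. Ush1g was called lower and Cdh23 higher.

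Between the alleles of the hybrids the question was whether the strain difference stays when both gene copies are read from the same cells. The Cast allele was lower for Myo7a, Ush1g, Cib2 and Gpr98 and, by a small margin, for Pcdh15, whereas Cdh23 and Clrn1 were not called. Of the 7 genes with enough allele-specific hits on both alleles together, Myo7a and Ush1g reached the minimum on the B6 allele only. They had 304 and 17.2 hits per library there, against 7.17 and 1.67 on the Cast allele. Both were called lower and are counted apart. Over both crosses, Cib2, Pcdh15 and Gpr98 of the other 5 genes were called, all lower. This stands beside 47% of 13414 polymorphic autosomal genes called and 23.5% called lower. The median difference of the 5 was that of Pcdh15, -0.12, and the median over all genes tested was 0.00138. Ush1c had too few hits.

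**Figure D2:**
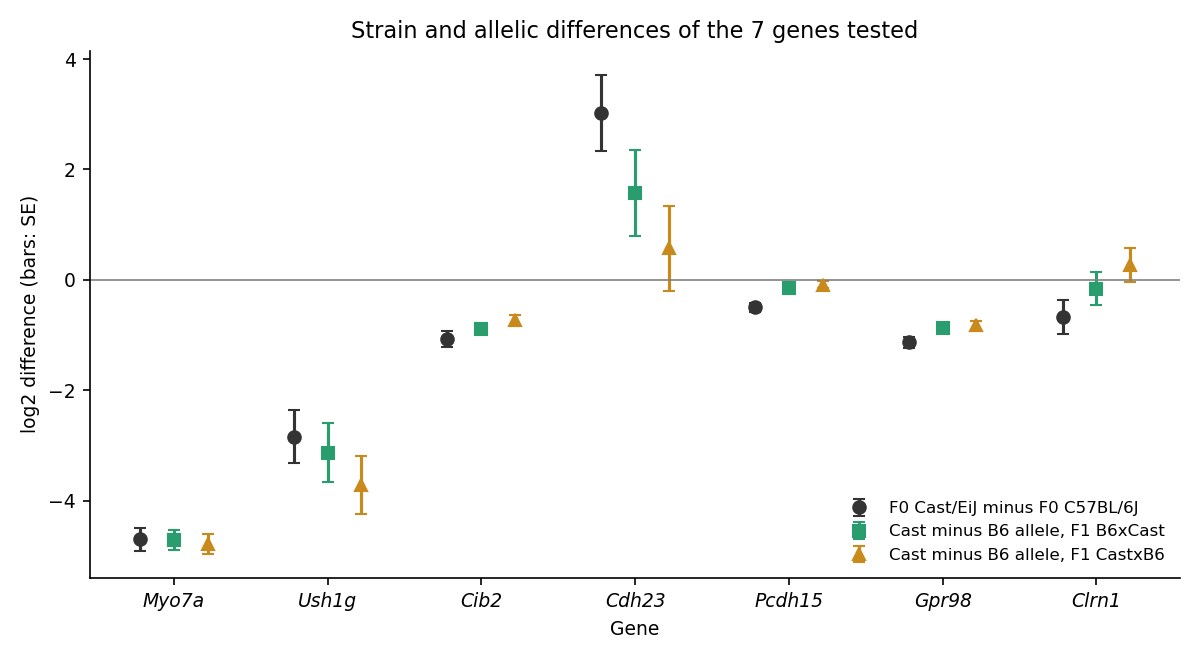
log2 differences with SE for the 7 genes tested, between the F0 strains (circles) and between the alleles of each F1 cross (squares, triangles). The 3 estimates for Myo7a lie between -4.78 and -4.70, and those for Cdh23 spread from 0.57 to 3.02.

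Myo7a (ENSMUSG00000030761, NCBI37 chromosome 7, 105199570 to 105268034, minus strand) encodes myosin VIIa, the motor of the complex, which carries melanosomes and phagosomes in the RPE. Its window before the gene start is the first of those shown, with a single GC box. In the F0 C57BL/6J libraries it had 530, 720 and 560 count equivalents. In F0 Cast/EiJ it had 16.3, 27.1 and 24.2. The strains were far apart, with the highest Cast/EiJ library well below the lowest C57BL/6J library. The difference was -4.70 ± 0.21 (SE), a 26.0-fold lower level (limma adjusted p = 5.09e-07), and it was among the 58 lowest of the 14452 genes tested. Unique hits gave the same order and a larger ratio, with 471, 667 and 486 in C57BL/6J and 6, 12 and 11 in Cast/EiJ. Scaled to hits per 1000000 unique hits these are 48.6 ± 6.8 against 1.10 ± 0.37 (SD, n = 3), a 44.3-fold difference. The log2 difference was -5.48 by edgeR on unique hits and -5.10 on the deposited log expression.

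The alleles of Myo7a in the hybrids were as far apart as the strains. The B6 allele had 440, 498 and 476 count equivalents in F1 B6xCast and 545, 586 and 572 in F1 CastxB6. The Cast allele had 15.7, 22.9 and 13.7 in F1 B6xCast and 17.6, 18.1 and 23.9 in F1 CastxB6. All 6 Cast values lay below all 6 B6 values, and they fell in about the range of the Cast/EiJ parent. The allelic difference was -4.74 ± 0.13 (limma adjusted p = 2.15e-14), among the 29 lowest of 13414 genes. It was -4.71 ± 0.18 in F1 B6xCast and -4.78 ± 0.18 in F1 CastxB6. The Cast allele took 43 of 1867 allele-specific hits, or 2.30% (Wilson 95% interval 1.71 to 3.09), and between 1.20% and 3.64% in single libraries. This share is above the 0.468% to 0.637% of X chromosomal hits on the father's allele, which is a mean over many genes, and misassignment at Myo7a itself was not measured. The mean of the Cast allele was 3.59% of the B6 allele in the hybrids, and the Cast/EiJ mean was 3.74% of the C57BL/6J mean in the parents.

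Since myosin VIIa is abundant in the RPE, RPE markers are given beside it. The summed level of the 12 listed markers was 341 to 388 count equivalents in F0 C57BL/6J and 161 to 195 in F0 Cast/EiJ. All 12 had a mean above 1 count equivalent in both strains. Of the 8 with enough reads, 3 (Rgr, Rdh5 and Ttr) were called lower in Cast/EiJ and none higher, with a median difference of -0.46. Over all genes tested 33.8% were called and 16.6% called lower. Rpe65, the visual cycle isomerase of these cells, had 16.2 ± 7.3 in C57BL/6J and 10.9 ± 1.2 in Cast/EiJ and did not pass the test (adjusted p = 0.46). Tyrp1, a melanosomal enzyme, had a difference of 0.69 that was not called (adjusted p = 0.21). Over the 12 markers 4 lay below the C57BL/6J range, 1 (Mlana) lay above it and 7 overlapped it, and their part in the Myo7a difference was not tested. In the hybrids 7 of the markers could be tested between alleles. Of these 1 was higher and 1 lower from the Cast allele, beside 47% of all genes called, and the median allelic difference was -0.15. Both alleles of a library come from the same cells, so these values do not measure the amount of RPE in a pool.

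The scaffolds of the complex are Ush1g and Ush1c. Ush1g (ENSMUSG00000045288, chromosome 11, 115176506 to 115183355, minus strand) encodes SANS, an ankyrin-repeat protein that links myosin VIIa to harmonin. It had 55.0, 40.3 and 50.9 count equivalents in F0 C57BL/6J and 8.74, 10.1 and 2.01 in F0 Cast/EiJ. Every Cast/EiJ library was below every C57BL/6J library, from 48, 38 and 42 unique hits against 6, 7 and 2. The difference was -2.84 ± 0.48 (limma adjusted p = 0.00217). It was -2.25 without F0 Cast/EiJ replicate 3, where the gene was lowest.

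In the hybrids the B6 allele of Ush1g had 40.8, 33.5 and 42.3 count equivalents in F1 B6xCast and 34.8, 48.0 and 43.1 in F1 CastxB6. The Cast allele had 3.49, 2.94 and 4.26 in F1 B6xCast, and 6.08, 9.19e-05 and 3.81 in F1 CastxB6. No Cast value reached the lowest B6 value. The allelic difference was -3.42 ± 0.38 (limma adjusted p = 1.03e-06), and its size depends on the added 1, since it was -4.19 with 0.1 and -2.46 with 5 added instead. The Cast allele took 10 of 113 allele-specific hits, or 8.85% (Wilson 95% interval 4.88 to 15.5). In F1 CastxB6 replicate 2 it took 0 of 19 hits, which allows a share of up to 15.8% by a floor of 3 hits, or 16.8% by the Wilson 95% limit. Ush1g overlaps Otop2 on the opposite strand, and reads of the pair cannot be separated by strand in this library type. Otop2 had at most 8.14 count equivalents in any library, a level similar to that of Ush1g in Cast/EiJ, and whether its reads entered the Ush1g values was not tested.

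Ush1c (ENSMUSG00000030838, chromosome 7, 53450720 to 53493873, minus strand) encodes harmonin, the PDZ scaffold that binds the tails of the cadherins. It was close to the limit of detection. F0 C57BL/6J libraries had 0, 0 and 2 unique hits and F0 Cast/EiJ libraries had 3, 3 and 4. A count of 0 allows up to 0.273 hits per 1000000 unique hits in the first C57BL/6J library, while the Cast/EiJ libraries lay between 0.364 and 0.397. The first value is an upper limit and the others are measured from 3 or 4 hits. In Cast/EiJ replicates 1 and 2 the measured 0.364 and 0.368 equal the limit that a count of 0 would allow there. In the hybrids 3 hits fell on the B6 allele and 6 on the Cast allele over all 6 libraries. The ranges of the strains did not overlap, from few hits in each, and the gene was not tested.

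Cib2 (ENSMUSG00000037493, chromosome 9, 54392601 to 54408025, minus strand) encodes a calcium- and integrin-binding protein that interacts with myosin VIIa and with the mechanotransduction channel of hair cells. It had 120, 126 and 124 count equivalents in F0 C57BL/6J and 54.6, 64.6 and 56.8 in F0 Cast/EiJ. The strains did not overlap, and the difference was -1.06 ± 0.14 (2.09-fold lower, limma adjusted p = 0.00064).

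In the hybrids the B6 allele of Cib2 had 143, 141 and 137 count equivalents in F1 B6xCast and 152, 131 and 137 in F1 CastxB6. The Cast allele had 69.7, 79.2 and 78.5 in F1 B6xCast and 86.8, 81.3 and 82.8 in F1 CastxB6. The alleles did not overlap, and both lay above the parent of the same strain, at 114% of F0 C57BL/6J and 136% of F0 Cast/EiJ. The allelic difference was -0.81 ± 0.07 (1.75-fold lower, limma adjusted p = 6.64e-08), and the Cast allele took 360 of 1042 allele-specific hits, or 34.6% (Wilson 95% interval 31.7 to 37.5). The share ran from 30.2% to 37.1% over the libraries, below the 49.5% of all autosomal genes in each.

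The cadherins are Pcdh15 and Cdh23, which join to form the tip link of stereocilia, and in these retinas they differed in level, in direction and in reliability. Pcdh15 (ENSMUSG00000052613, chromosome 10, 72562090 to 74112475, plus strand) had 5950, 5610 and 5300 count equivalents in F0 C57BL/6J. It had 4110, 4330 and 3520 in F0 Cast/EiJ. The ranges were apart, with a difference of -0.50 ± 0.09 (1.41-fold lower, limma adjusted p = 0.00286).

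In the hybrids most of this difference was gone. The B6 allele of Pcdh15 had 4600, 4490 and 4720 count equivalents in F1 B6xCast and 4580, 4730 and 4470 in F1 CastxB6. The Cast allele had 4180, 4010 and 4280 in F1 B6xCast and 4330, 4340 and 4320 in F1 CastxB6. The Cast allele was the lower one in 6 of 6 libraries, by a small margin. The allelic difference was -0.12 ± 0.04 (1.08-fold lower, limma adjusted p = 0.0331), and leaving out any 1 of the 6 F1 libraries ended the call, with adjusted p between 0.0515 and 0.103. The Cast allele took 12158 of 25705 allele-specific hits, or 47.3% (Wilson 95% interval 46.7 to 47.9), beside 49.5% to 49.6% over all autosomal genes.

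Cdh23 (ENSMUSG00000012819, chromosome 10, 59765496 to 60159238, minus strand) was the only one of the 7 genes tested that was higher in Cast/EiJ. It had 12, 20 and 16 unique hits in F0 C57BL/6J and 74, 100 and 82 in F0 Cast/EiJ. Scaled to the library's unique hits (hits per 1000000) these are 1.44 ± 0.31 against 9.79 ± 2.2 (SD, n = 3), a ratio of 6.81, with no overlap. The count equivalents were less even, with 21, 3.69 and 2.49 in C57BL/6J and 37, 42 and 117 in Cast/EiJ, and they did not follow the unique hits within a strain. Their difference was 3.02 ± 0.70 (limma adjusted p = 0.0101), and 3.84 without the first C57BL/6J library. On the deposited log expression it was 1.58, so the direction was shared by the 3 measures but the size was not.

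The alleles of Cdh23 were closer than the strains. In F1 B6xCast the B6 allele had 16, 30 and 17 unique hits and the Cast allele 25, 56 and 34. In F1 CastxB6 the B6 allele had 29, 19 and 18 and the Cast allele 41, 41 and 39. The Cast allele had more hits in each of the 6 libraries, 236 of 365 in all, or 64.7% (Wilson 95% interval 59.6 to 69.4). The count equivalents scattered, from 2.62 to 39.6 on the B6 allele and from 12.8 to 57.7 on the Cast allele, and their allelic difference of 1.07 ± 0.55 was not called (limma adjusted p = 0.12). It was 1.81 and called (adjusted p = 0.00584) without F1 B6xCast replicate 3, where the B6 allele had more count equivalents but fewer hits than the Cast allele. On unique hits, edgeR gave 0.90 with an adjusted p of 0.000272, where the alternatives ran from 0.000272 to 0.407. Cdh23 overlaps 4632428N05Rik on the opposite strand, which had a mean of 49.0 count equivalents over the libraries, beside 9.06 and 65.3 for Cdh23 in F0 C57BL/6J and F0 Cast/EiJ. Whether reads of that gene entered the Cdh23 values was not tested.

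**Figure D3:**
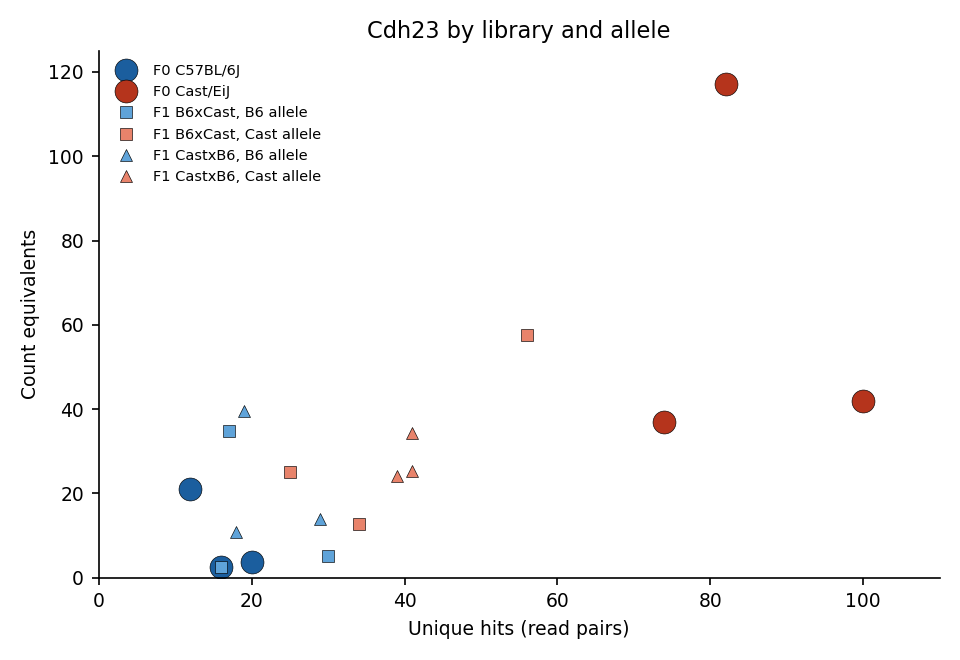
Count equivalents against unique hits of Cdh23, 1 point per library (F0) or per allele of a library (F1). The F0 Cast/EiJ libraries lie rightmost at 74 to 100 hits but spread from 37 to 117 count equivalents, and B6 alleles with 17 and 19 hits have 34.9 and 39.6.

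Gpr98 (ENSMUSG00000069170, chromosome 13, 81234067 to 81772153, minus strand), also named Adgrv1, encodes a very large adhesion G-protein-coupled receptor that forms the ankle links of hair bundles and fibrous links at the photoreceptor cilium. It had 3660, 3900 and 4140 count equivalents in F0 C57BL/6J and 1960, 1860 and 1530 in F0 Cast/EiJ. The ranges were apart, with a difference of -1.13 ± 0.10 (2.20-fold lower, limma adjusted p = 4.20e-05). In FPKM, which the authors' program estimates over transcripts, the means were 15.0 and 5.30, and the log2 difference was -1.50.

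In the hybrids the B6 allele of Gpr98 had 3720, 3590 and 3780 count equivalents in F1 B6xCast and 3410, 3690 and 3550 in F1 CastxB6. The Cast allele had 2140, 1730 and 2250 in F1 B6xCast and 2040, 2030 and 1950 in F1 CastxB6. The alleles did not overlap, and each lay within or near the range of the parent of its strain. The allelic difference was -0.84 ± 0.06 (1.80-fold lower, limma adjusted p = 5.67e-09). The Cast allele took 7928 of 24282 allele-specific hits, or 32.6% (Wilson 95% interval 32.1 to 33.2), from 30.9% to 34.2% in single libraries. A lincRNA on the opposite strand, 9330111N05Rik, overlaps Gpr98 and had at most 24.0 count equivalents.

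**Figure D4:**
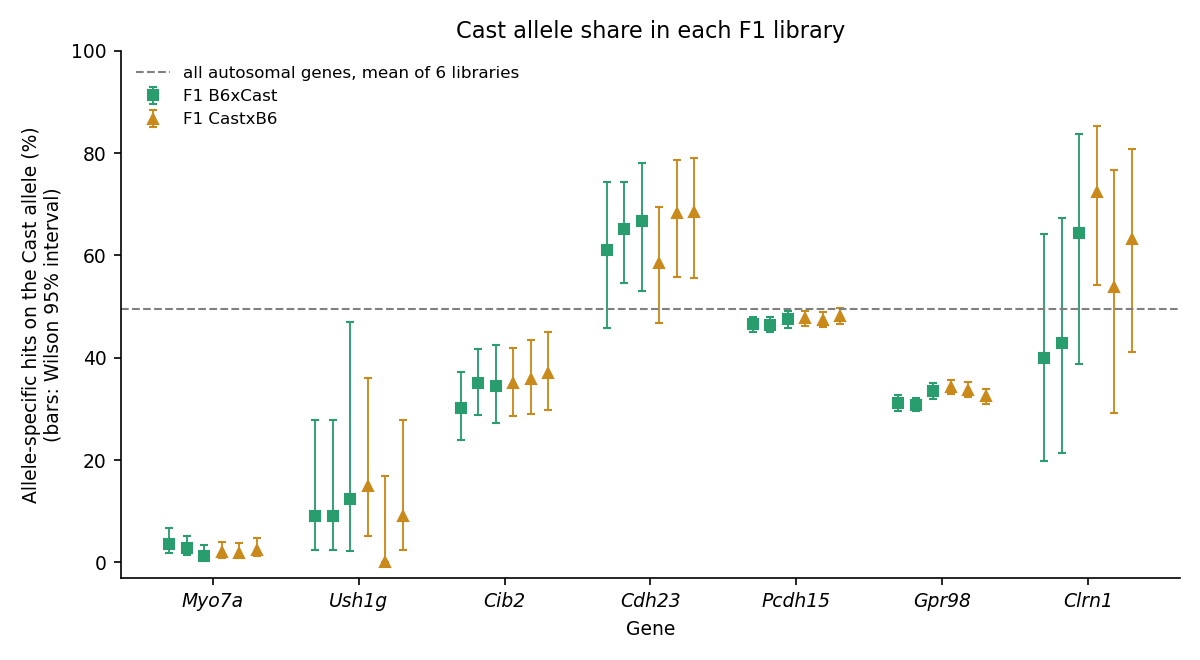
Percent of allele-specific hits on the Cast allele in each F1 library, with Wilson 95% intervals (counting error only), and the mean over all autosomal genes as a dashed line. Myo7a lies at 1.20% to 3.64%, Cib2 and Gpr98 between 30.2% and 37.1%, Pcdh15 just under the line, and Cdh23 above it at 58.6% to 68.4%.

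Clrn1 (ENSMUSG00000043850, chromosome 3, 58647950 to 58689262, minus strand) encodes clarin-1, a small tetraspan membrane protein. It had 42.3, 37.9 and 65.4 count equivalents in F0 C57BL/6J and 21.5, 27.2 and 42.6 in F0 Cast/EiJ. The strains overlapped, and the difference of -0.67 ± 0.31 did not pass the test (limma adjusted p = 0.12). In hits per 1000000 unique hits the means were 4.76 and 3.97. In the hybrids the B6 allele ranged from 30.4 to 63.8 count equivalents and the Cast allele from 33.7 to 75.4, with a difference of 0.05 ± 0.22 (limma adjusted p = 0.86). Clrn1 had 104 allele-specific hits over the 6 libraries, 61 of them on the Cast allele (58.7%, Wilson 95% interval 49.1 to 67.6). On the deposited log expression the allelic difference was 0.75 and called (adjusted p = 0.0131, where the alternatives ran from 0.00949 to 0.97), so the call depends on which deposited measure is used.

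The reciprocal crosses asked whether an allelic difference depends on which strain was the mother. For none of the 7 genes was a difference between the crosses called by limma (adjusted p = 0.9999 for each), beside 0.492% of all genes tested, and none had an unadjusted p under 0.05. By edgeR and DESeq2 none of the 7 was called either. For Cib2, Pcdh15 and Gpr98 the difference of the allelic differences, F1 B6xCast minus F1 CastxB6, was small. It was -0.15 ± 0.14 for Cib2, -0.06 ± 0.08 for Pcdh15 and -0.04 ± 0.12 for Gpr98, beside a median SE of 0.17 over all genes tested. For Myo7a, whose Cast allele had 43 hits in all, it was 0.07 ± 0.26, a wider error than that median. For the genes with few hits it was poorly known, at 0.59 ± 0.75 for Ush1g, 1.005 ± 1.10 for Cdh23 and -0.43 ± 0.43 for Clrn1.

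The strain difference minus the allelic difference gives the part of the strain difference that is not seen between the alleles, and is here called the trans effect. It was called for Pcdh15 alone among the 7 genes, beside 14% of all genes tested. For Pcdh15 it was -0.38 ± 0.08 (limma adjusted p = 0.00293). The 6 B6 alleles of the hybrids, at 4470 to 4730 count equivalents, were all below the 3 C57BL/6J libraries, at 81.8% of their mean, whereas the Cast alleles averaged 106% of the Cast/EiJ mean and overlapped it. For Gpr98 the value was -0.29 ± 0.11 (adjusted p = 0.093), and -0.34 and called without F1 B6xCast replicate 2 (adjusted p = 0.0345). Myo7a had 0.05 ± 0.24, Ush1g 0.58 ± 0.68, Cib2 -0.25 ± 0.13, Cdh23 1.95 ± 0.999 and Clrn1 -0.73 ± 0.39, none called. On unique hits edgeR called 3 genes, namely Pcdh15, Gpr98 (-0.32) and Cdh23 (1.80). Parents and hybrids also differed in the number of lanes, and lane and generation cannot be told apart in this comparison. Cone and ganglion cell marker sums in the hybrids, at 85.3% to 90.1% and 84.3% to 89.0% of F0 C57BL/6J, lay between those of the parents, and their part in the Pcdh15 result was not tested.

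**Figure D5:**
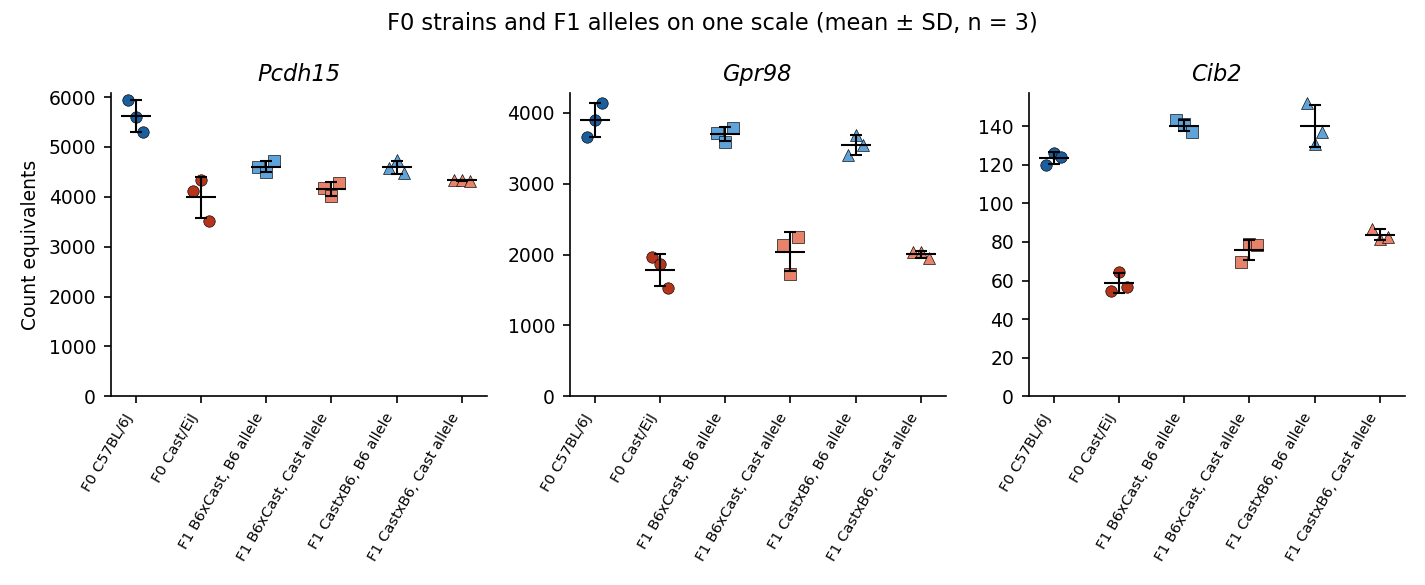
Count equivalents of Pcdh15, Gpr98 and Cib2 in each F0 library and on each F1 allele, with the mean ± SD of 3 libraries. The Pcdh15 B6 alleles fall to 4470 to 4730 from 5300 to 5950 in F0 C57BL/6J, the Gpr98 alleles stay near their parents, and the Cib2 alleles lie above theirs.

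A list of 28 symbols of interaction partners, hair-bundle components and genes of related sensory disorders was counted beside the 8 genes, and 25 of the symbols were found. Between the F0 strains 18 could be tested, of which 2 were higher and 4 lower in Cast/EiJ, or 33.3% called beside 33.8% of all genes, and the median difference was -0.03. Rab27a, the small GTPase that couples melanosomes to myosin VIIa through Myrip, was 2.14-fold lower in Cast/EiJ (-1.10 ± 0.16, limma adjusted p = 0.00086). Myrip itself was at 1173 and 1073 count equivalents in the strains and did not pass the test (adjusted p = 0.20). Arsg, a lysosomal sulfatase, was 2.29-fold lower (-1.20 ± 0.22, limma adjusted p = 0.00366), and the bicarbonate transporter Slc4a7 was 1.20-fold higher (0.27 ± 0.07, limma adjusted p = 0.018).

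Between the alleles 19 genes of the list could be tested, with 7 higher and 4 lower from the Cast allele, or 57.9% called beside 47% of all genes. The median difference was -0.02, beside 0.00138 over all genes tested, and the list was not tested against the 8 genes. Rab27a was lower from the Cast allele by about as much as between the strains (-1.18 ± 0.10, limma adjusted p = 2.46e-08). Abhd12, a lysophospholipase, was higher from the Cast allele (0.81 ± 0.05, limma adjusted p = 3.11e-10), as were the actin-capping protein Eps8 (0.53 ± 0.05, limma adjusted p = 3.08e-07) and Anks4b (1.91 ± 0.26, limma adjusted p = 1.51e-05), which had a mean of 3.33 count equivalents in F0 C57BL/6J. None of the 19 was called between the crosses, beside 0.492% of all genes tested. In the strain-minus-allele comparison 3 were called, all 3 negative, or 15.8% called beside 14% of all genes.

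The genes most like each member were sought among 11624 autosomal genes by Pearson's r of log2(count equivalents + 1) over the 12 libraries, for the members present in every library. The points share their libraries and fall into strain classes, so r describes the class pattern and carries no test. Myo7a was most like Pcdhb15 (r = 0.998), a clustered protocadherin, Gpr98 most like Oasl2 (r = 0.99), Cib2 most like 4632415L05Rik (r = 0.992) and Pcdh15 most like Tnrc6b (r = 0.982). Clrn1 had no gene above 0.9, the highest being Mrpl13 at 0.883. High values were common for the others, since 685 genes reached 0.9 with Myo7a, 574 with Cib2, 530 with Gpr98 and 83 with Pcdh15.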

How the data were processed

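Poly(A) RNA of pooled retinas was sequenced as paired reads of 101 bp, and the library type does not mark strand. The authors trimmed reads with Trim Galore 0.2.6, mapped them with Bowtie 0.12.9 to transcriptomes of each strain, both strains together for hybrids (Ensembl 67, NCBI37), and estimated expression with MMSEQ. The signal values in the deposited tables are count equivalents, which the authors estimated, normalized between libraries and gave as decimal numbers. Expression was deposited by the authors as a natural log, and its exponential was taken as FPKM. A score, the posterior SD of that log, was deposited beside it and used as a weight. Unique hits are a count deposited by the authors without normalization, and they gave the depth. The deposited table of the authors' MMDIFF results holds their own comparisons and was not used, and 36 per-sample columns were left out.

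Members were matched by symbol. The members and lists were chosen with earlier results of these data known. F0 strains were compared with limma on log2(count equivalents + 1) keeping autosomal genes that had 10 or more count equivalents in 3 or more of the 6 libraries. Alleles, crosses and trans effects came from 1 limma model of 6 classes (2 strains, and 2 alleles in each of 2 crosses), in which the alleles of a hybrid library were tied by duplicateCorrelation (consensus 0.1354), for polymorphic autosomal genes averaging 10 or more allele-specific hits. The Benjamini-Hochberg method was applied over all genes tested, and an adjusted p under 0.05 was a call. The fits were tested on simulated data. Wilson intervals are at 95%, a count of 0 was set to 3 for floors, and both reflect counting error alone, as reads carried no molecular identifiers and need not be independent molecules. Replicates differed by more than sampling noise, so none was merged.

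Named were all 8 members, at most 4 genes of the partner list per comparison, and the gene most like each member with at least 10 count equivalents in every library, where F1 alleles were averaged and not summed, as first planned, because each allele column is normalized to a full library. Windows before gene starts were read from the NCBI37 genome, with the annotation of the same build. The alternatives were pseudocounts of 0.1 and 5, TMM factors, edgeR and DESeq2 on rounded values, edgeR on unique hits, the log expression, other filters, no library block, a replicate block, and each library left out in turn. The fits ran in R 4.3.3, using limma 3.58.1 together with statmod 1.5.0, DESeq2 1.42.0 and edgeR 4.0.16. Summaries, sequences and plots were made in Python 3.11.15, using pandas 2.3.3, scipy 1.17.1 and matplotlib 3.10.9.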

Additional observations from a re-analysis of the deposited data

Results flagged for a closer look

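Pcdh15 was the single result picked out for a closer look, because its strain difference in F0 (-0.50 ± 0.09, log2, SE) was larger than its allelic difference in the hybrids (-0.12 ± 0.04), by a tested difference of -0.38 ± 0.08 (limma adjusted p = 0.00293). The call held in each of 24 alternatives, with values from -0.45 to -0.30 and adjusted p from 0.000172 to 0.0116. Parents were read on 1 lane and hybrids on 2, and lane and generation cannot be told apart. Groups of 3 libraries are too small for the test of a library far from the others of its group, which was therefore not run.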

How the results depend on the processing

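In 580 of 621 comparisons of a single gene's difference with an alternative, the direction and the side of the threshold were kept. Between the F0 strains 6 genes were called, with Cdh23 and Ush1g, which were counted apart, among them. Without a filter on low values 3 were called. There Cdh23 (limma adjusted p = 0.146), Ush1g (0.0621) and Pcdh15 (0.0513) lost the call, and 3161 of all genes were called instead of 4887. In each fit that left out a library 6 were called. Between alleles 5 were called, with Myo7a and Ush1g, which were counted apart, among them, and 4 to 5 with a library left out. For trans effects 1 was called, 3 by edgeR on unique hits, and 1 to 2 with a library left out. Between crosses 0 were called throughout, and the count over all genes was 66, 39 by edgeR on unique hits and 31 on the weighted log expression. The cause was not tested.

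Pcdh15 lost its allelic call in 11 of 24 alternatives (adjusted p up to 0.103). Signs that reversed belonged to values that were not called. Between crosses Cdh23 turned to -0.011 on unique hits, -0.56 on log expression and -0.55 on weighted log expression, and Ush1g to -0.45 on the last. The trans value of Myo7a turned to -0.14 on unique hits, -0.23 on log expression and -0.24 on weighted log expression. With a library left out, the trans value of Myo7a ran from -0.10 to 0.25 (log2), the allelic difference of Clrn1 from -0.20 to 0.23, and the cross difference of Myo7a from -0.091 to 0.23, of Gpr98 from -0.10 to 0.049, of Clrn1 from -0.77 to 0.082 and of Ush1g from -0.36 to 1.28. The cross difference of Cdh23 kept its sign in these fits but ran from 0.16 to 2.48, and its trans value from 1.21 to 2.76.

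Groups share replicate numbers in the labels, but deviations of same-numbered libraries correlated between -0.12 and 0.32, with 6 of 18 pairs above 0.1, and 7 of 12 libraries lay closest to their own number. Same-numbered libraries of F0 C57BL/6J, F0 Cast/EiJ and F1 B6xCast correlated from 0.041 to 0.32, and those of F1 CastxB6 with the other classes from -0.12 to 0.040. Pairs at or under 0.1 occurred between each 2 classes, so the numbers were not taken to pair the libraries. With a replicate block 6376 of all genes and 7 of these genes were called between F0 strains, Clrn1 being added (adjusted p = 0.039), and 5 were called between alleles, 0 between crosses and 1 for trans effects. Depth limits Ush1c, Ush1g, Cdh23 and Clrn1, which had 9, 113, 365 and 104 allele-specific hits over the 6 F1 libraries.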
